A study of Caenorhabditis elegans with 2 samples.

Results

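Peaks of the zinc-finger transcription factor BLMP-1 that lay between divergent gene starts were described in first-stage (L1) larvae of Caenorhabditis elegans. A divergent-start peak was one whose summit, the position of highest signal, lay outside every annotated gene, with the nearest protein-coding transcript start on the minus strand at most 1000 bp to its left and the nearest on the plus strand at most 1000 bp to its right. The gene on each side was thus transcribed away from the summit. There were 697 such peaks among 8751, or 7.96%. They lay between 676 pairs of gene starts, called sites here, and named 1352 genes, none of which appeared at more than 1 site.

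The data came from 1 group, whole L1 larvae of strain OP109, a mixed-sex population that carries the wgIs109 insertion, an eGFP-tagged blmp-1, in an unc-119(ed3) III background. The tagged copy is an insertion besides the native gene locus, and a signal from whole larvae averages all tissues. The group held 2 biological replicates, called 1 and 2, and no second condition, so all comparisons below are between peaks, genes or gaps of the same libraries. The peaks are the authors' optimal list, which holds the peaks that passed an irreproducible discovery rate (IDR) filter, and each peak's signal is the authors' value, of unstated scale, used only to rank and describe peaks within a list. Rank 1 is the strongest peak.

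BLMP-1 belongs to the same family as the mammalian repressor Blimp-1 (PRDM1), and it is best known in the worm for roles in epidermal development and developmental timing. C. elegans genes are packed closely, so that many neighbours are transcribed in opposite directions from one short shared stretch. A factor bound in such a stretch lies upstream of both genes, and a peak alone does not tell which of them, if either, it acts on. Blimp-1 proteins are known to bind sequences containing AAAGTGAAA.

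Windows that reach 75 bases to each side of 6 summits are given first, because they show the range of sequence under these peaks: 3 of the strongest sites, another site with an exact AAAGTGAAA, and the strongest sites whose genes are both ribosomal protein genes or both collagen genes. Each is the plus strand of WBcel235 (ce11), read 5′ to 3′ from the RefSeq assembly, with the summit at its centre. Capitals mark AAAGTGAAA or its reverse complement TTTCACTTT with at most 1 mismatch. The windows are chrIII:2401630-2401780 (cic-1/strm-1), chrIV:6336824-6336974 (mif-4/ipla-6), chrII:10599033-10599183 (C14A4.8/C14A4.9), chrII:14489537-14489687 (usp-14/vnut-1), chrIII:7179772-7179922 (rps-14/rpl-36) and chrIV:8824420-8824570 (col-117/col-3). In each name the minus-strand gene comes before the plus-strand gene.
cic-1/strm-1: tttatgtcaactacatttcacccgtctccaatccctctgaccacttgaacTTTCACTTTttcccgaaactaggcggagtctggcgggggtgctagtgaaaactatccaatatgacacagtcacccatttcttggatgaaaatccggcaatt
mif-4/ipla-6: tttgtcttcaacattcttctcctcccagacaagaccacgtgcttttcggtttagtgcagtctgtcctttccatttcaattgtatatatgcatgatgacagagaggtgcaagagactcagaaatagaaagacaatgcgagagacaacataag
C14A4.8/C14A4.9: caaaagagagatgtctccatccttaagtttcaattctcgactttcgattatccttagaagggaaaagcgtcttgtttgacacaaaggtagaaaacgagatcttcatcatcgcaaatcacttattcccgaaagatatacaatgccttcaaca
usp-14/vnut-1: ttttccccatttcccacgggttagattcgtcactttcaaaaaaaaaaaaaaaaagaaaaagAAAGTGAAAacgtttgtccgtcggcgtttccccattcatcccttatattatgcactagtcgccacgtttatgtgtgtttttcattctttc
rps-14/rpl-36: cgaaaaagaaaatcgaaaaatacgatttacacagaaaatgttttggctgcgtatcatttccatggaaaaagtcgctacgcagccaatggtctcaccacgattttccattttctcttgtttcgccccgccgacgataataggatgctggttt
col-117/col-3: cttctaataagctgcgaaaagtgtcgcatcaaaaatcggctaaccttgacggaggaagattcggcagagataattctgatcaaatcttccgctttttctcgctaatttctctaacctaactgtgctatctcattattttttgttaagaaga

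The cic-1/strm-1 and usp-14/vnut-1 windows hold an exact match, centred 21 and 10 bp from the summit. The other 4 windows hold no match, exact or with 1 mismatch.

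The strongest divergent-start sites joined genes of unlike function. The F55F8.7/ptr-10 site on chromosome I had the highest signal, 1550 at rank 50, and ptr-10 encodes a patched-related membrane protein. Its peak had a signal of 453 in replicate 1 and 1100 in replicate 2, and lay 99 bp from the ptr-10 start and 771 bp from the F55F8.7 start. The ztf-9/ZK287.7 site ranked 52, with a signal of 484 in replicate 1 and 1047 in replicate 2. ztf-9 encodes a C2H2 zinc-finger protein and ZK287.7 a protein with an RNA ligase domain. The cic-1/strm-1 site ranked 55, with 384 in replicate 1 and 1127 in replicate 2. cic-1 encodes cyclin C, a part of the Mediator kinase module, and strm-1 a sterol methyltransferase. At the ctf-8/T22C1.5 site, rank 94, the starts were 165 bp apart and the summit lay 76 bp from ctf-8 and 89 bp from T22C1.5. ctf-8 encodes a subunit of a clamp loader used in sister chromatid cohesion. These 4 were the only divergent-start peaks among the 100 strongest of all peaks, or 4.0%, less than their 7.96% of the whole list.

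The sites ranked below these held housekeeping genes as well as genes of cuticle, cilia and signalling. The next in order were mif-4/ipla-6 (rank 101), C14A4.8/C14A4.9 (108), dyf-4/F45D3.1 (128), R107.5/cls-2 (164), gbf-1/immp-1 (180) and usp-14/vnut-1 (237). dyf-4 is needed in ciliated sensory neurons, cls-2 encodes a microtubule-binding CLASP protein, gbf-1 an exchange factor for a Golgi GTPase, immp-1 a mitochondrial peptidase and usp-14 a deubiquitinase. The remainder of the 20 strongest sites were iff-2/F54C9.14, cutl-1/F53F1.2, eif-2Bbeta/Y47H9C.8, rps-20/ekl-4, nra-3/tsp-21, bath-42/prp-8, ZC412.10/nspa-5, C02F5.14/C02F5.5, K02E10.6/K02E10.4 and rps-19/hsr-9, which ranked 290 to 497. Among these, iff-2 and eif-2Bbeta encode translation factors, rps-20 and rps-19 ribosomal proteins, prp-8 the core splicing factor, cutl-1 a cuticlin-like protein and tsp-21 a tetraspanin. All 20 were found among the strongest peaks of both replicates, and 11 of them held the motif with at most 1 mismatch. Their ranks ran from 46 to 1556 in replicate 1 and from 37 to 472 in replicate 2, so the sites lay within a narrower range of ranks in replicate 2.

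Over all 697 peaks, strength was close to that of the whole list at its centre and lower at its top. The median rank was 4244, with quartiles of 2440 and 6241, against a median of 4376 for all 8751 peaks. The median signal was 151.2, against 147.4 for all peaks, and the signals ran from 62.0 to 1550. The 1000 strongest peaks held 48 divergent-start peaks (4.8%), peaks ranked 1001 to 3000 held 183 (9.15%), those ranked 3001 to 6000 held 269 (8.97%) and those ranked 6001 to 8751 held 197 (7.16%). The share was thus lowest among the strongest peaks.

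Most of these peaks recurred in both replicates. Of the 697, 551 (79.1%, 95% Clopper-Pearson interval 75.8% to 82.0%) had a summit within 100 bp among the 8751 strongest peaks of each replicate, against 75.2% of all optimal peaks and 75.8% of peaks with a start on one side only. Among all entries of each replicate list, the share was 90.4% for both divergent-start peaks and all optimal peaks. These full lists are named as peaks and background for the IDR step, so an entry there need not be a called peak. A match in replicate 2 alone was found for 116 (16.6%), close to the 16.5% of all optimal peaks. A match in replicate 1 alone was found for 27 (3.87%, against 7.29%) and in neither replicate for 3 (0.43%, against 1.01%). The signals of the 630 peaks in both full lists had a Spearman's rho of 0.735 across peaks, against 0.693 for all 7907 such peaks. These peaks share the same pair of libraries and are not independent. The optimal list was made from both replicates, so this overlap is in part built in. Intervals on shares of peaks, genes or gaps cover counting error only, and neighbouring peaks and genes are not independent.

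Divergent-start peaks stood higher in the list of replicate 2. Of the 630 in both lists, 435 (69.0%) had a better rank in replicate 2, against 48.4% of all such peaks and 51.8% of peaks with a start on one side only. The lists differ in length, with 27310 entries in replicate 1 and 30000 in replicate 2, which holds for every peak compared. Their median rank was 4527 in replicate 1 and 4034 in replicate 2. The part of this difference in the results below was not tested.

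**Figure D1:**
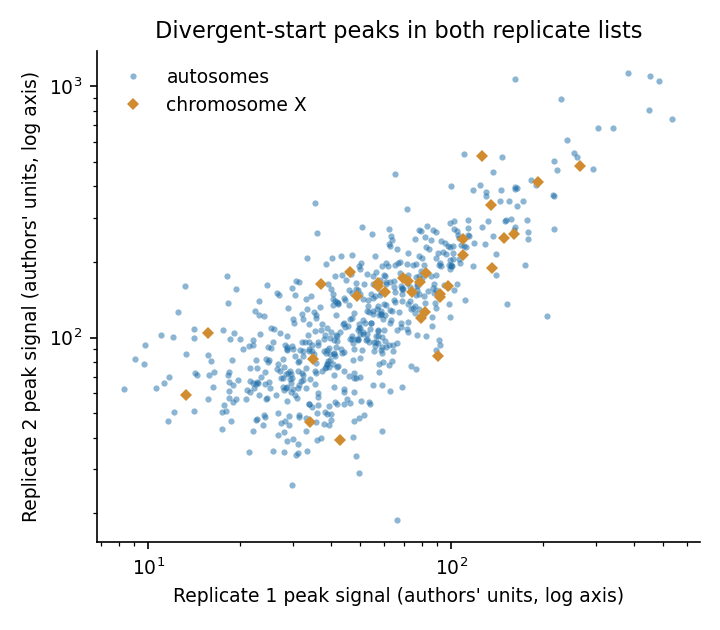
Peak signal of the 630 divergent-start peaks found in both replicate lists, with replicate 1 on the horizontal and replicate 2 on the vertical axis, both logarithmic and in the authors' units; diamonds are peaks on chromosome X and circles peaks on autosomes. The points follow one rising band (Spearman's rho 0.735 across peaks), with the diamonds spread along it.

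Most summits lay within 200 bp of at least 1 start, and fewer within 200 bp of both. The member rule put every summit within 1000 bp of both starts, and the spacing of the starts limits these distances further. Closeness to a start is thus in part built in. The median distance was 238 bp to the minus-strand start and 209 bp to the plus-strand start, and 331 summits were nearer to the minus-strand start, 363 nearer to the plus-strand start and 3 equally far from both. The nearest start was a median of 138 bp away and the farther one 378 bp. In all 500 summits (71.7%, 68.2% to 75.1%) lay within 200 bp of at least 1 start, and 150 (21.5%, 18.5% to 24.8%) within 200 bp of both. The counts for the strands were close.

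The spacing of the paired starts had a median of 532.5 bp over the 676 sites, with quartiles of 324 and 799 bp. The narrowest sites were F25H9.6/F25H9.7 and nhr-94/nhr-152, with starts 15 bp apart, and ztf-18/F23H11.2 with 35 bp. The nhr-94/nhr-152 summit lay 6 bp from one start and 9 bp from the other, and its signal was 49.2 in replicate 1 and 97.6 in replicate 2, at rank 4270. Both genes encode nuclear hormone receptors, a family of transcription factors that is large in nematodes. The widest sites were F52H3.6/ttc-36 (1768 bp), mdh-1/F46E10.3 (1771 bp) and gsto-1/col-90 (1820 bp). Their ranks were 1392, 1601 and 4097, all stronger than the median of the 697 peaks.

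Spacing and strength were almost unrelated across sites. The Spearman's rho of spacing and signal was 0.0224 over 676 sites, given as a description across sites of the same libraries. The median best rank was 4642 for the 94 sites with a spacing of 1 to 250 bp, 3954 for the 225 sites of 251 to 500 bp, 4131 for the 265 of 501 to 1000 bp and 4404 for the 92 of 1001 to 2000 bp. The median spacing over peaks was 723 bp at ranks 1 to 1000, 519 bp at 1001 to 3000, 499 bp at 3001 to 6000 and 636 bp at 6001 to 8751, so it was widest for the strongest peaks and second widest for the weakest.

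**Figure D2:**
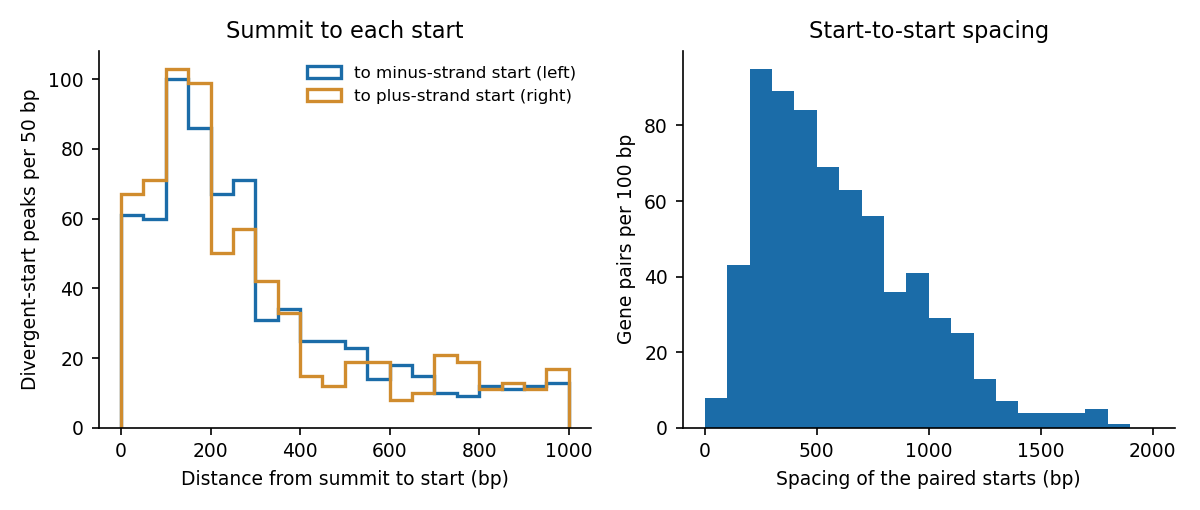
Left, distance in bp from each of the 697 summits to its minus-strand and its plus-strand start, counted per 50 bp; right, spacing in bp of the paired starts at the 676 sites, counted per 100 bp. Distances to both kinds of start pile up below 400 bp (medians 238 bp to the minus-strand and 209 bp to the plus-strand start), and the spacing has its median at 532.5 bp with a tail to 1820 bp.

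Nearly all sites had a single summit. Of the 676 sites, 655 held 1 and 21 held 2, with the summits of a pair 221 to 784 bp apart. The median peak width was 336 bp, and no site with starts closer than 627 bp held 2 summits. A single summit at a narrow site was thus not shown to be a single bound position. At usp-14/vnut-1 the stronger summit (rank 237) lay 190 bp from vnut-1 and the weaker (rank 2687) 140 bp from usp-14, so that each gene start had a summit of its own nearby. At mtm-5/Y34B4A.7 on chromosome X the summits ranked 841 and 1483 and lay 82 bp from Y34B4A.7 and 159 bp from mtm-5. The other sites with 2 summits were abu-13/let-711, larp-5/sld-2, F15D3.6/timm-23, uvs-1/xpo-1, arrd-19/F35F10.1, cdf-1/glr-8, W01A8.2/plin-1, mpz-5/mask-1, pas-6/CD4.11, cdc-14/ttc-4, nhr-80/H10E21.1, aka-1/ubc-6, F56D6.8/dct-8, Y38E10A.22/Y38E10A.24, ZK1307.1/gstk-1, mat-1/prp-31, F22D3.4/flcn-1, mig-22/mtss-1 and snf-6/mtg-1. For 595 of the 697 peaks (85.4%) no other optimal summit lay within 1000 bp of either start. This share was not counted for other peaks. Single summits were also common elsewhere: gaps of up to 2000 bp between same-direction genes held 1020 summits in 944 occupied gaps. Divergent gaps held 880 in 818.

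At 65 peaks (9.33%) another annotated gene lay between the paired starts, most often a non-coding RNA gene (45 peaks). A microRNA gene lay between the starts at 3 peaks, a tRNA gene at 6, a piRNA gene at 7 and another protein-coding gene at 5. The eef-1A.1/rfc-4 site, rank 727 and picked out after its values were seen, had a microRNA gene between its starts, and eef-1A.1 encodes a translation elongation factor. In these places the start named here need not be the only one near the summit. At the 1000 bp limit, gbf-1/immp-1, amph-1/srm-3 and nasp-2/C50B6.3 each had a start exactly 1000 bp from the summit, and T10E9.8/T10E9.2 (1005 bp), C06A6.4/mvb-12 (1007 bp) and xrep-4/cey-2 (1010 bp) fell just outside.

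Divergent gaps held BLMP-1 summits more often than other gaps between neighbouring genes. Of 2495 gaps of up to 2000 bp between divergent protein-coding neighbours, 818 (32.8%, 30.9% to 34.7%) held a summit that lay outside every gene, against 944 of 7291 (12.9%, 12.2% to 13.7%) between genes of the same direction and 42 of 2161 (1.94%, 1.40% to 2.62%) between convergent genes. Over all 11947 gaps the share was 15.1%. Per length, divergent gaps held 0.448 summits per kb, same-direction gaps 0.215 and convergent gaps 0.036. By the strands of its neighbours, a divergent gap has an annotated gene start at both ends, a same-direction gap at one end and a convergent gap at neither. The part of the number of starts in this order was not tested. Of the 697 peaks, 694 lay in a divergent gap, which follows largely from the rule that defined them.

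The share was highest for divergent gaps of 251 to 500 bp. It was 25.7% at 1 to 250 bp, 42% at 251 to 500 bp, 32.7% at 501 to 1000 bp and 30.0% at 1001 to 2000 bp. In the same length classes the share was 4.74%, 15.8%, 14.1% and 19.6% for same-direction gaps. The divergent share was thus the higher in each class. Per length, divergent gaps held 1.56, 1.14, 0.475 and 0.251 summits per kb in these classes, from short to long. Same-direction gaps held 0.386, 0.427, 0.2 and 0.163. By this measure the shortest divergent gaps, not those of 251 to 500 bp, stood highest.

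**Figure D3:**
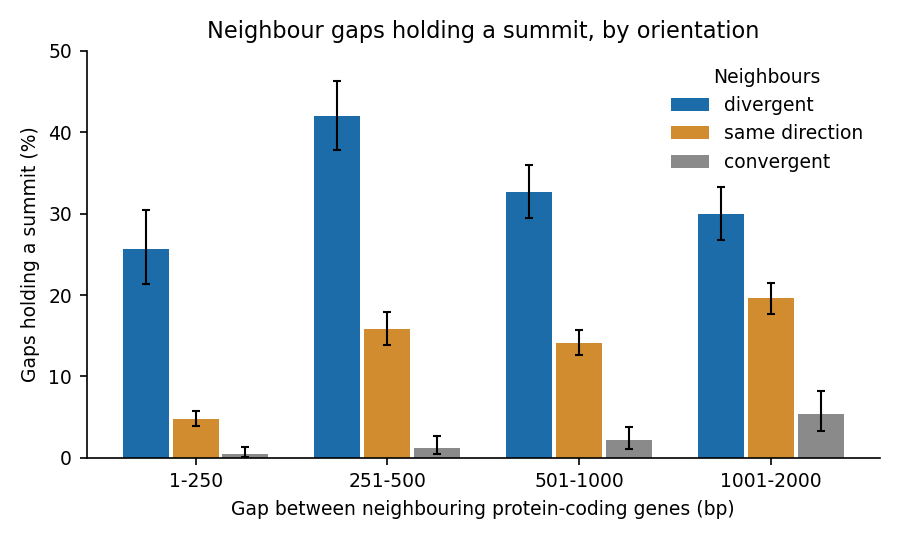
Percent of gaps between neighbouring protein-coding genes that held a summit outside genes, by gap length in bp and by the orientation of the neighbours; bars are shares and error bars 95% Clopper-Pearson intervals. Divergent gaps are highest in every length class, from 25.7% to 42%, and convergent gaps lowest.

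Chromosome X held few divergent-start peaks. They made up 32 of its 1790 optimal peaks (1.79%), against 7.43% on chromosome II, 8.12% on IV, 9.57% on V, 11.2% on I and 11.6% on III. Chromosome X also had the fewest divergent gaps, 176, and these had the longest median, 1133 bp. Of its gaps 30.1% held a summit, against 24.9% on V, 29.2% on IV, 29.4% on II, 40.6% on I and 47.3% on III. Their part in the low count on X was not tested. The 32 peaks on X had a median signal of 224, against 150 for the 665 on autosomes. The strongest on X were nra-3/tsp-21 (rank 373), K02E10.6/K02E10.4 (441) and trap-2/ile-2 (504), the last named after the other values were seen. trap-2 and ile-2 encode proteins of the secretory pathway.

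The genes at these sites were drawn unevenly from the gene lists examined. Of 19973 protein-coding genes, 6.77% lay at a site. In each list below, the count is the number of its genes at a site. The lists were drawn by gene name, mostly by prefix, so they miss genes of the same function that carry other names. At sites these include cic-1, iff-2 (rank 290), let-70 (rank 1234), a ubiquitin-conjugating enzyme gene, and nduf-2.2 (rank 1610), a respiratory complex I gene, the last pair named after their values were seen.

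Among the lists, RNA processing, proteasome and ribosomal protein genes had the highest shares at a site in the main set. Of 81 ribosomal protein genes 33 lay at a site (40.7%, 29.9% to 52.2%), and the strongest were rps-20/ekl-4 (rank 355) and rps-19/hsr-9 (497). The rps-20 peak had a signal of 218 in replicate 1 and 504 in replicate 2. With peaks near small RNA genes (snoRNA, snRNA, rRNA or tRNA, within 1000 bp) left out, 23 of the 81 (28.4%) lay at a site, against 6.44% of all genes, and with summits allowed in non-coding genes 44 did (54.3%), against 7.21%. The median rank of the ribosomal genes' sites was 1496, against 4181 for all genes at sites. Of 37 RNA processing genes 18 lay at a site (48.6%, 31.9% to 65.6%), led by prp-8 at rank 410 and by the splicing genes snr-3 and rsp-5, which share a site at rank 2006. This count fell to 10 when the 8751 strongest peaks of replicate 1 replaced the optimal list, that is, without replicate 2. It was also 10 (27.0%) among peaks matched in both replicates and with 500 bp on each side. Among the 4375 strongest peaks it was 7 (18.9%), and in the other alternatives 15 to 19. Where it was 10 or 7, the share was below those of the proteasome and ribosomal protein lists. The median rank of the RNA processing genes' sites was 5490, against 4181 for all genes at sites. Of 33 proteasome genes 15 lay at a site (45.5%, 28.1% to 63.6%), with rpn-9/T06D8.9 at rank 815 and hsp-110/rpn-3 at rank 1329 the strongest. The rpn-9 window held an exact AAAGTGAAA.

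Further lists of basic cell machinery were also above the share of all genes. Translation factors and tRNA synthetases had 16 of 62 (25.8%), with eif-2Bbeta (rank 319) and eef-1G (rank 708) at the strongest sites. Chaperones had 17 of 59 (28.8%), led by mig-5/cct-1 (rank 707) and cct-6/alh-9 (rank 1160), of which cct-1 and cct-6 encode subunits of the chaperonin that folds tubulin and actin. The respiratory chain had 12 of 38 (31.6%), led by rde-4/cox-14 (rank 875) and mcrs-1/atp-1 (rank 1677), of which atp-1 encodes an ATP synthase subunit. Cell cycle and replication had 12 of 46 (26.1%), mitochondrial ribosomal proteins 15 of 70 (21.4%), membrane traffic 16 of 86 (18.6%) and ubiquitin conjugation 6 of 32 (18.8%). The strongest of these were orc-5/cyb-1 (rank 1109), cdc-6/acin-1 (1426), rpl-28/mrpl-49 (1496), vbh-1/mrpl-17 (2542), nmat-2/rab-5 (2223), stau-1/sec-22 (2654), ubq-2/frg-1 (1629) and aka-1/ubc-6 (4451). General transcription and Mediator genes had 7 of 58 (12.1%, 4.99% to 23.3%), with apb-1/mdt-19 and taf-11.3/urm-1 at ranks 1349 and 1350, and their interval includes the share of all genes.

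Families tied to environment, senses or cell fate were at or below the share of all genes. Chemoreceptors had 8 of 1192 (0.671%, 0.29% to 1.32%), with rsr-1/sri-5 (rank 2996) among them. The list of C-type lectins and F-box A had 7 of 410 (1.71%), with efl-1/fbxa-90 (3095) and F48C1.6/fbxa-145 (4219) the strongest. Collagens and cuticlins, which form the cuticle, had 7 of 210 (3.33%, 1.35% to 6.75%), led by cutl-1 and by col-117/col-3 (rank 767). Nuclear hormone receptors had 14 of 270 (5.19%), led by rop-1/nhr-232 (975) and H12C20.7/nhr-68 (2124), and this count was 8 without replicate 1. Neuropeptides and insulins had 4 of 140 (2.86%), with nlp-34/nlp-31 (919) and T19C4.24/nlp-33 (6493). Hedgehog-related and patched-related genes had 1 of 85, ptr-10. Homeobox genes had 0 of 72, major sperm proteins 0 of 31, heterochronic genes, which time development, 0 of 17, and molting genes 1 of 25, nekl-2 at ZC581.7/nekl-2 (rank 6491). Kinases had 2 of 34, nekl-2 and kin-3 of mrpl-9/kin-3 (rank 6051), and bZIP and zinc-finger regulators 3 of 45, led by ztf-9 and by zip-4/nol-58 (rank 1832). For homeobox genes 0 of 72 allows a share of up to 4.99%. The upper limits were 11.2% for major sperm proteins, 19.5% for heterochronic and 20.4% for molting genes, all above the 6.77% of all genes. Only 10 homeobox, 14 major sperm protein, 3 heterochronic and 2 molting genes bordered a divergent gap of up to 2000 bp, so these counts rest on few genes. None of 29 tissue marker genes lay at a site, with 5 or fewer markers for each of epidermis, intestine, muscle, pharynx, neurons and germline. For these markers the upper limit was 11.9%, and 5 of the 29 bordered such a gap.

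**Figure D4:**
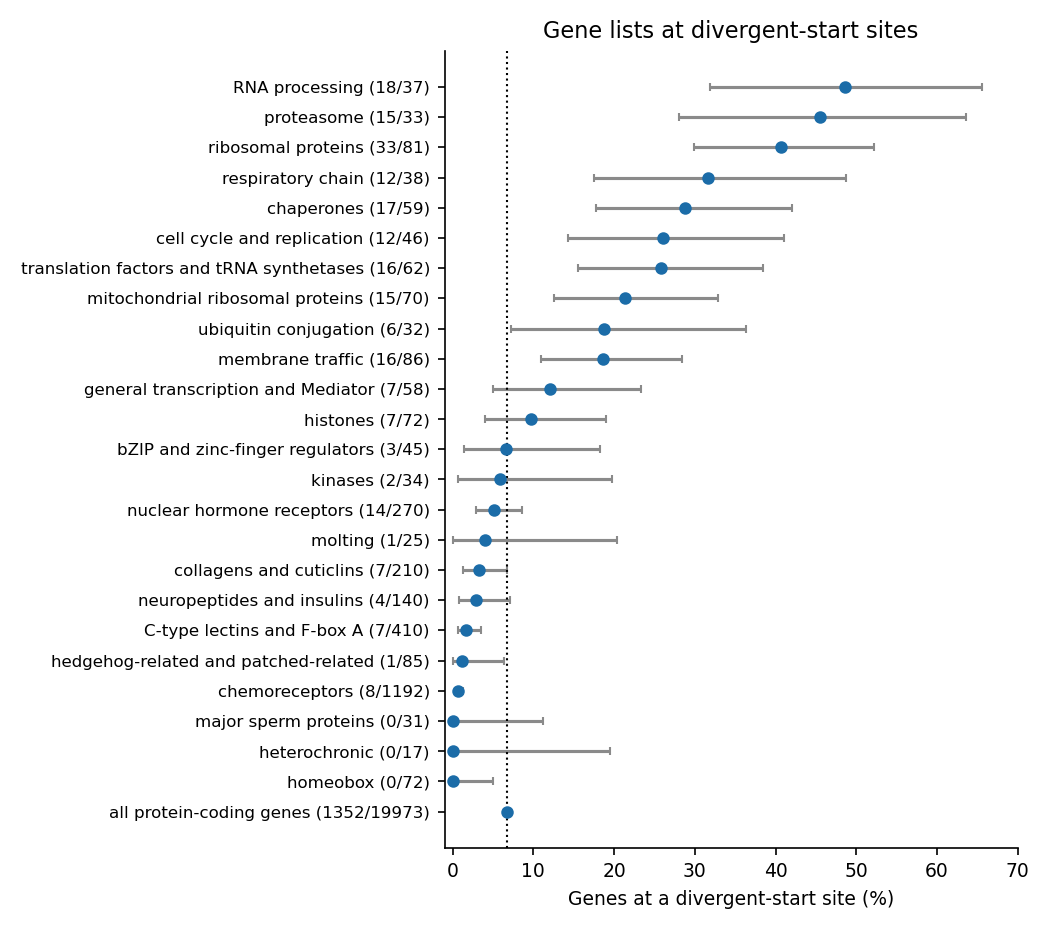
Percent of the genes of each list that lay at a divergent-start site, with 95% Clopper-Pearson intervals; the number at a site and the list size stand in parentheses, and the dotted line is the 6.77% of all protein-coding genes. RNA processing, proteasome and ribosomal protein genes stand highest, and chemoreceptor, homeobox, heterochronic and sperm protein genes at or near 0.

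The groups of lists differed both in how many genes bordered a divergent gap and in how many of those gaps held a summit. The 11 lists of basic machinery, grouped after their values were seen, held 602 genes, of which 278 (46.2%) bordered a divergent gap of up to 2000 bp, against 550 of 2518 genes (21.8%) in the other lists without histones and 25% of all protein-coding genes. Of those that bordered such a gap, 178 (64.0%) had a summit in it in the machinery lists, against 70 (12.7%) in the other lists and 32.8% of all protein-coding genes that border one. The low share of the other lists came from the chemoreceptor, C-type lectin and F-box A lists, with 20 of 388 (5.15%, 3.18% to 7.85%). The rest of the other lists had 50 of 162 (30.9%, 23.9% to 38.6%), close to the share of all genes, and nuclear hormone receptors had 20 of 44 (45.5%). Histone genes stood apart, since 64 of 72 bordered a divergent gap and 7 of these (10.9%) had a summit in it. Many histone genes are near-identical copies, and the treatment of reads that match several copies is not stated in the labels.

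Sites at genes of the machinery lists ranked higher in replicate 2 more often than other sites. Among the 146 such peaks in both lists, 120 (82.2%) had the better rank in replicate 2, against 315 of 484 (65.1%) at other divergent-start sites. At ribosomal protein genes it was 28 of 30 (93.3%). The part of this replicate difference in the list counts was not tested. Without replicate 2 the count was 31 for ribosomal protein genes (38.3%) and 13 for proteasome genes (39.4%), against 6.14% of all genes.

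At 14 sites both genes belonged to the same list. The ribosomal protein genes rps-14 and rpl-36 shared a site at rank 661 with starts 663 bp apart, and its signal was 173 in replicate 1 and 349 in replicate 2. The collagen genes col-117 and col-3 shared one at rank 767 and 588 bp, with 219 in replicate 1 and 269 in replicate 2. Against the common pattern, the col-117/col-3 site had the better rank in replicate 1, 464 there and 1054 in replicate 2. The neuropeptide-like genes nlp-34 and nlp-31, which belong to a group of antimicrobial peptide genes of the epidermis, shared a site at rank 919. The replication and cyclin genes orc-5 and cyb-1 shared one at rank 1109, and the splicing genes snr-3/rsp-5 and rsp-2/rsp-1 at ranks 2006 and 6439, the last with another protein-coding gene between the starts. Histone pairs were his-67/his-68 (rank 1287), his-31/his-32 (3075) and his-4/his-3 (7412). The small heat shock genes hsp-16.2 and hsp-16.41, induced by heat stress, shared a weak site at rank 7819 with starts 221 bp apart. The remaining pairs were nhr-94/nhr-152, nhr-89/nhr-169 (8345), nhr-263/nhr-148 (8531) and fbxa-76/fbxa-77 (6068).

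The AAAGTGAAA motif was less frequent under divergent-start peaks than under other peaks. With at most 1 mismatch on either strand, it was found within 75 bp of 125 of the 697 summits (17.9%, 15.2% to 21.0%), against 32.0% of all optimal peaks, 30.5% of peaks with a start on one side only and 36.1% of peaks with no start within 1000 bp. The midpoints of 1677 divergent gaps without a summit held it in 20.2% (18.3% to 22.2%), and those windows had a median GC content of 32.5%, against 40.4% under divergent-start peaks. An exact match was found under 13 peaks (1.87%, 0.997% to 3.17%), against 5.42% of all peaks and 0.835% of empty gaps. No match says only that these letters are not in the window.

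The difference was present in each range of rank. Among the 48 divergent-start peaks ranked 1 to 1000, 43.8% held the motif (29.5% to 58.8%), against 55.4% of all peaks of those ranks, so the intervals overlap there. The shares were 15.3% against 33.4% at ranks 1001 to 3000, 18.6% against 28.2% at ranks 3001 to 6000 and 13.2% against 26.5% at ranks 6001 to 8751. Divergent-start peaks with an exact match had a median rank of 1729 (n = 13), those with 1 mismatch 3794 (n = 112) and those without a match 4286 (n = 572). Sites with an exact match besides cic-1/strm-1, usp-14/vnut-1, rpn-9/T06D8.9 and mdh-1/F46E10.3 included pas-6/CD4.11, whose pas-6 encodes another proteasome subunit, and pges-2/iars-1, whose iars-1 encodes a tRNA synthetase, both picked out after their values were seen. Only 2 of the 32 peaks at ribosomal protein genes held the motif with at most 1 mismatch (6.25%, 0.766% to 20.8%), although their median rank was 1530.

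**Figure D5:**
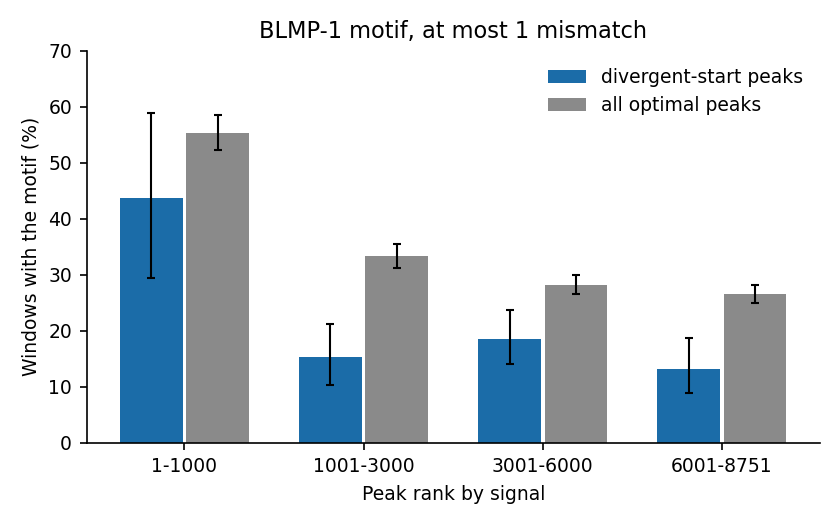
Percent of windows reaching 75 bp to each side of summits that held the motif with at most 1 mismatch, by range of peak rank, for divergent-start peaks and for all optimal peaks of the same ranks; error bars are 95% Clopper-Pearson intervals. Divergent-start peaks are lower in each range, from 43.8% against 55.4% at ranks 1 to 1000 to 13.2% against 26.5% at ranks 6001 to 8751.

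GAGAGAGA, a GA repeat, was found in 4.16% of divergent-start windows (2.80% to 5.92%), against 8.98% of all peaks and 1.37% of empty divergent gaps. TGATAA, the core of GATA factor sites, was found in 11.3% (9.08% to 13.9%), against 18.8% of all peaks and 15.7% of empty gaps. CCGCCC, a core recognised by zinc-finger factors of the SP and KLF type, was found in 7.60% (5.75% to 9.83%), against 5.97% of all peaks, which lies within that interval, and 3.58% of empty divergent gaps. Matches were exact, on either strand.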

How the data were processed

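ChIP-seq peak lists of eGFP-tagged BLMP-1 in 2 biological replicates, as numbered in the labels, were used. The authors deposited narrowPeak lists for each replicate and an optimal list made from both, whose peak signal is a score with no stated scale. The replicate lists are named as holding peaks and background, as input for IDR. The labels name ce10 and ce11 as assemblies, and only ce11 lists were used. No source used here gives the aligner, the peak caller, their versions or the IDR threshold. The lists hold no read counts, so each sample's depth, and the precision it would give, is unknown.

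Summits (start plus offset) were written 1-based and set against gene models of Ensembl release 115 on WBcel235, with protein-coding transcript starts taken from 19973 genes. Neighbour gaps separate merged protein-coding genes. Matches between lists used summits within 100 bp among the 8751 strongest peaks of each replicate, the size of the optimal list. Intervals are 95% Clopper-Pearson intervals. With 1 group no test between conditions was made, and no p-value is given. The replicates' spread is shown by their separate values.

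Genes named are those of the 20 strongest sites, the 2 strongest sites of each of 24 gene lists, sites with both genes in 1 list, the 3 narrowest and 3 widest, those with most summits and those at the 1000 bp limit; exceptions are marked, and some items are not reported here. The members, lists and motifs were chosen with earlier results of these data known. Alternatives were other windows, gene models, peak subsets, each replicate alone and other match and motif settings. The member rule and motif search were tested on simulated data. Python 3.11.15, numpy 2.4.6, pandas 2.3.3, scipy 1.17.1 and matplotlib 3.10.9 were used.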

Additional observations from a re-analysis of the deposited data

How the results depend on the processing

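Of 72 recomputed values of the 8 main results, 51 stayed within 1.5 times the reported count, or within the 95% interval of the reported share or median, and 21 did not. With 500 bp on each side there were 441 peaks at 441 sites, a median spacing of 386 bp, 14.7% with the motif and 34% within 200 bp of both starts. With 2000 bp there were 1068 peaks at 981 sites, a median spacing of 766 bp and 14% within 200 bp of both starts. With only protein-coding genes barred, 34.9% of divergent gaps held a summit, against 13.3% of same-direction gaps. The 4375 strongest peaks gave 368 peaks at 365 sites, 96.2% matched in both replicates and 18.2% of divergent gaps with a summit, against 6.79% of same-direction gaps. Peaks matched in both replicates gave a median rank of 3506 and 26.3% of divergent gaps. Matching within 50 bp gave 74.5% matched in both, against 68.2% of all optimal peaks. Matching among all entries of each replicate list gave 90.4% against 90.4%. The motif share was 1.87% for exact matches, against 5.42% of all peaks, and 38.2% within 150 bp, against 46.9%. With either replicate left out, the median rank ran from 4097 to 4442 and the share of divergent gaps from 30.5% to 33.4%. Of 81 recomputed list counts, added after the data were seen, 66 stayed within 1.5 times. These include the homeobox count, which was 0 in the main set and in every alternative, so its stability says little. Ribosomal protein genes ran from 23 to 44.

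No paired analysis was possible because there is 1 group and no result comes from a test. Windows and subsets that change which peaks can qualify change the counts by construction. Depth is unknown, so a gap without a summit was not shown to be unbound.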

Other observations

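After windows of strong divergent-start sites were read, among them windows not printed here, short words rich in C and G were counted in all windows. This describes patterns noticed in these same data. The words were picked from divergent-start windows, so a higher share there is in part built in. GCGCTC is in none of the printed windows. Peaks with a start on one side only were not counted apart for these words. GCGCTC or its reverse complement was found in 136 of 697 divergent-start windows (19.5%, 16.6% to 22.7%), against 6.15% of the 8054 other optimal peaks and 3.46% of 1677 divergent gaps without a summit. Among divergent-start peaks it was found in 28.0% (21.2% to 35.7%) of the 157 at genes of the basic machinery lists and in 17% (14% to 20.5%) of the 540 others. Strong sites include genes of those lists, so this split is not independent of how the word was picked. TACGCAG or its reverse complement was found in 4.30% (2.92% to 6.09%), against 1.33% of other optimal peaks and 1.43% of empty gaps. CG pairs numbered a median of 8 per divergent-start window, against 6 in the windows of other optimal peaks and 4 in empty gaps.

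Divergent-start peaks lay within 1000 bp of a tRNA, rRNA, snRNA or snoRNA gene in 34 cases (4.88%), against 3.81% of all optimal peaks.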
